A study of Mus musculus with 12 samples.

Results

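The comparison set 3 RNA libraries of CD8 T cells from the spleen against 3 libraries of total thymocytes, all from tumour-free wild-type C57BL/6J mice, and used 6 of the 12 libraries of the series. The other libraries, of T-cell leukaemia, are not described here. Thymuses and spleens were dissociated mechanically. Thymocytes were taken whole, so each thymocyte library mixes all stages present in the organ, and CD8 cells were enriched from splenocytes by removing other cells, to a purity that the labels give as 85 to 95%. Polyadenylated RNA was sequenced. The labels do not say that replicates came from separate animals, so the p-values measure the spread between these samples.

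T cells are made in the thymus. Progenitors pass a stage without either co-receptor, cut and rejoin their T-cell receptor genes with the RAG recombinase, divide, and become CD4+ CD8+ thymocytes, which make up most of the organ. Those whose receptor engages self MHC are positively selected, keep a single co-receptor, leave the thymus and circulate through spleen and lymph nodes as naive cells, some of which later become memory cells. The comparison spans that path from end to end and, in bulk RNA, fewer cells of a type and less RNA per cell cannot be told apart.

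The libraries held 12694571 to 13592535 counts for thymocytes and 15629090 to 42483898 for CD8 cells. Levels are given as CPM, counts scaled to a common library size, always in the order of libraries 1, 2 and 3. Thymocyte library 3 stood apart: its log2 CPM correlated across genes at 0.932 and 0.899 with the other thymocyte libraries, which correlated at 0.974 with each other, and 13.8% of its counts came from 20 genes, against 6.28 to 8.76% elsewhere. Its deviation from the thymocyte mean of each gene rose with the GC content of the gene (Spearman 0.667 across 18403 genes). Thymocyte libraries 1 and 2 had -0.477 and -0.631. The 3 deviations of a gene cancel, so opposite signs follow partly from the calculation. Counts without thymocyte library 3 stand beside the results they move.

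The co-receptor genes matched the labels. Cd8a, the CD8 alpha chain, was at 1680, 1513 and 2962 CPM in thymocytes and 744, 862 and 1103 CPM in CD8 cells. Cd4 was at 1150, 848 and 1743 CPM in thymocytes and at 43.5, 19.97 and 5.41 CPM in CD8 cells, so CD8 library 3 held the least Cd4 transcript. Cd3e, a subunit of the receptor complex, was at 460, 431 and 829 CPM in thymocytes and 334, 275 and 400 CPM in CD8 cells.

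The CD8 libraries carried markers of other spleen cells in unequal amounts. The summed level of 13 natural killer (NK) cell markers was 986, 409 and 139 CPM in the CD8 libraries and 65.1 to 121 CPM in thymocytes, and 8 of the 13 tested were called higher at an adjusted p under 0.05, where 7.26% of all genes tested were. Myeloid markers summed to 1710, 3910 and 355 CPM in CD8 libraries and 126 to 324 CPM in thymocytes, with 7 of 14 called higher. B-cell markers summed to 1500, 1860 and 587 CPM against 409 to 696 CPM, with 10 of 14 called higher. Plasma-cell markers summed to 1050, 203 and 46.6 CPM against 113 to 213 CPM, groups that overlapped, with 1 of 6 called higher. Among them, Jchain was at 860, 95.9 and 10.1 CPM in CD8 libraries and 21.8, 12.98 and 13.5 CPM in thymocytes, and was not called (adjusted p = 0.0687). Xbp1 was at 112, 82.8 and 26.4 CPM in CD8 libraries and 108, 95.4 and 183 CPM in thymocytes (-0.80, adjusted p = 0.353). CD8 library 3 was therefore lowest in the markers of all these cells. Haemoglobin genes varied in both groups, Hbb-bs being at 1562, 4.55 and 594 CPM in thymocytes and 52.4, 243 and 14.3 CPM in CD8 cells. The 17 markers of stroma and thymic epithelium summed to 240, 203 and 350 CPM in thymocytes and 309, 309 and 330 CPM in CD8 libraries, which overlapped. Only Krt5 and Krt14 of that list were at 0 in every CD8 library. The 8, 7 and 10 calls became 0, 1 and 3 without thymocyte library 3, and 2, 0 and 3 without thymocyte library 1. They were 4, 2 and 4 without CD8 library 1, 5, 2 and 4 without CD8 library 2, and 9, 17 and 12 without CD8 library 3. Which members passed the filter on low counts changed with the libraries kept, so these counts are not all out of the same number, and the myeloid list has 17 members in all. Without thymocyte library 2 they were 2, 1 and 3.

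**Figure D1:**
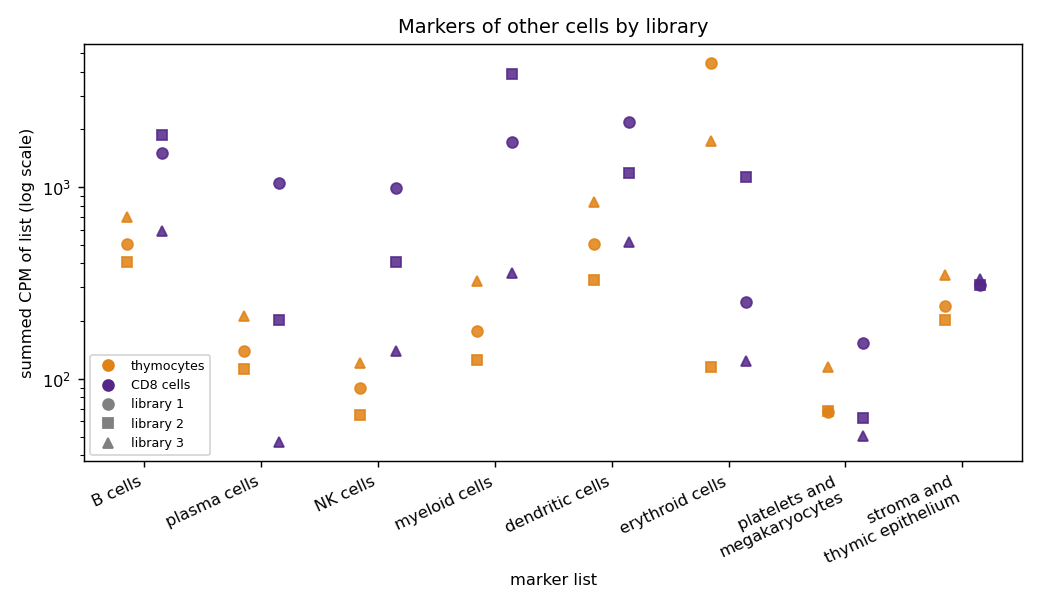
Summed CPM (log scale) of marker lists of other cell types in each of the 6 libraries. Orange marks thymocytes and purple CD8 cells, and the symbol gives the library number. CD8 library 3 had the lowest B-cell, plasma-cell, NK-cell and myeloid sums of the 3 CD8 libraries.

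Of 18517 genes tested, 1344 were higher in CD8 cells (7.26%) and 1382 were lower (7.46%) at an adjusted p under 0.05, and nearly all of them differed by more than 2-fold (1321 and 1347). Every adjusted p given here is from edgeR's quasi-likelihood test with Benjamini-Hochberg adjustment over all genes tested, and a gene is called on that p. The shares of 7.26% and 7.46% are those to set beside the counts given for each gene list. The median log2 difference, CD8 cells minus thymocytes, was 0 over all genes. Without thymocyte library 3, 2262 genes were higher (11.4% of 19833) and 2329 lower (11.7%). They included 2384 of the 2726 genes called with all 6 libraries. On simulated data of the same depth and spread, the test found 34% of 100 genes changed 4-fold and 2% of 100 genes changed 2-fold, so a gene that was not called may still differ. Only those genes were changed there, far fewer than the 2726 called here. The adjustment is stricter when fewer genes change, so these percentages may understate what the test finds in the data. The same simulation also called 5 unchanged genes, to be set beside the 34% and 2% of changed genes found.

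**Figure D2:**
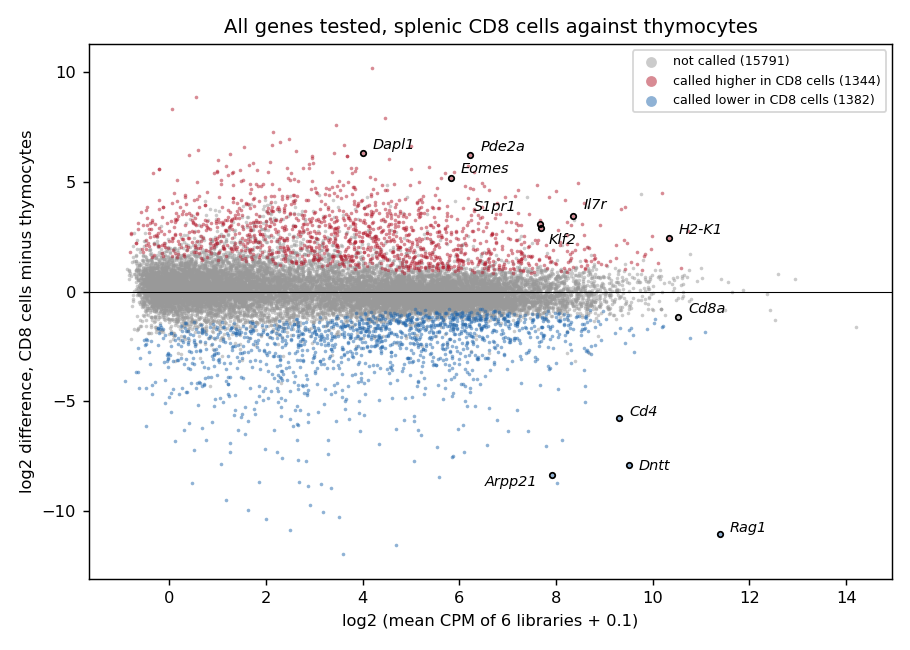
Each point is a gene tested, placed by its mean level over the 6 libraries (log2 of mean CPM + 0.1) and its log2 difference, CD8 cells minus thymocytes. Red points (1344) were called higher and blue points (1382) lower, and Rag1 lay lowest of the genes labelled, at -11.04.

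Genes of receptor assembly were lower in CD8 cells. Of 13 genes for V(D)J recombination and the pre-T-cell receptor, 8 fell and none rose, with a median log2 difference of -1.98. Without thymocyte library 3, 9 fell and 1 rose. Rag1, which encodes the DNA-cutting subunit of the recombinase (chr2:101638282-101649501, GRCm38), was at 5865, 4779 and 5547 CPM in thymocytes. In CD8 cells it was at 1.89, 5.20 and 0.630 CPM, a log2 difference of -11.04 ± 0.95 (SE, n = 3 per group, adjusted p = 0.000683). The groups were far apart for Rag1. Its partner Rag2 (chr2:101624718-101632529) was at 183, 204 and 79.4 CPM in thymocytes and 2.96, 4.59 and 4.80 CPM in CD8 cells (-5.23 ± 0.46, adjusted p = 0.00075). Dntt, the terminal transferase that adds untemplated bases at the joints, was at 1176, 1090 and 2081 CPM against 6.36, 6.37 and 5.32 CPM (-7.91 ± 0.43, adjusted p = 0.000243). Ptcra, the invariant chain that pairs with the newly made beta chain, was at 28.4, 16.1 and 47.1 CPM against 0.252, 0.392 and 0.420 CPM (-6.36 ± 0.54, adjusted p = 0.000683). CD8 library 3, with the fewest markers of other cells, had the least Rag1 and Dntt of its group but the most Rag2 and Ptcra.

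End-joining factors split. Xrcc6, which encodes Ku70, was lower by 3.39 on the log2 scale (adjusted p = 0.000802) and the ligase gene Lig4 had -3.31 (adjusted p = 0.00244). The partner of Ku70, Xrcc5, was at 24.97, 22.8 and 35.3 CPM in thymocytes and 27.6, 30.3 and 36.2 CPM in CD8 cells, groups that overlapped (adjusted p = 0.726). Prkdc, the kinase of the same repair step, was at 92.7, 112 and 20.1 CPM against 136, 152 and 167 CPM and was not called (adjusted p = 0.269).

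Genes typical of the CD4+ CD8+ stage fell together, 13 of 20 lower and none higher, with a median log2 difference of -2.20. Arpp21, a cAMP-regulated phosphoprotein, was at 505, 485 and 461 CPM in thymocytes and 1.64, 1.57 and 1.19 CPM in CD8 cells (-8.37 ± 0.33, adjusted p = 6.2e-05). Endou, a nuclease gene, was at 449, 324 and 788 CPM against 1.45, 1.57 and 0.676 CPM (-8.74 ± 0.59, adjusted p = 0.000287). The lowest thymocyte library was 281 times the highest CD8 library for Arpp21 and 207 times for Endou. Cd4, on the same list, had -5.77 ± 0.80 (adjusted p = 0.00337). Cd8a and Cd8b1 are members too, and their log2 differences of -1.18 (adjusted p = 0.0585) and -0.81 (adjusted p = 0.211) did not pass. Cd8a passed without thymocyte library 3 (adjusted p = 0.0398).

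Receptor genes themselves were partly lower. Trbc1 and Trbc2, the constant segments of the receptor beta chain, had log2 differences of -1.87 ± 0.33 (adjusted p = 0.00872) and -1.71 ± 0.36 (adjusted p = 0.018), while Trac, the alpha constant segment, was at 288, 236 and 468 CPM against 250, 232 and 327 CPM (adjusted p = 0.605). Trbc1 and Trbc2 are near-identical copies, so reads may be split uncertainly between them. Both lost the call without CD8 library 1 (adjusted p = 0.0535 and 0.0915) or CD8 library 2 (0.0512 and 0.0892), and Trbc2 also without thymocyte library 1 (0.0539). Trdc, the delta constant gene, was at 83.0, 87.0 and 88.6 CPM in thymocytes and 52.8, 24.2 and 16.9 CPM in CD8 cells (adjusted p = 0.0516).

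Notch signalling drives the early steps of the lineage, and its genes did not move one way. Of 12 tested, 2 rose and 2 fell, where 7.26% of all genes tested were higher and 7.46% lower. The counts are too small to read as a result about the list. Notch3, a receptor most active in early thymocytes, was at 134, 88.0 and 175 CPM in thymocytes and 3.59, 1.18 and 1.31 CPM in CD8 cells (-6.07 ± 0.57, adjusted p = 0.000887). Il2ra, a marker of the stage before the co-receptors appear, was at 58.4, 43.2 and 65.4 CPM against 16.4, 8.19 and 7.65 CPM (-2.38 ± 0.38, adjusted p = 0.00598). Notch1 was at 533, 305 and 677 CPM against 339, 271 and 392 CPM, groups that overlapped (-0.60 ± 0.34, adjusted p = 0.302). The difference ran the other way for Dtx1, which encodes the Notch-associated ubiquitin ligase Deltex1. It was at 29.7, 17.3 and 55.1 CPM in thymocytes and 263, 203 and 366 CPM in CD8 cells (3.03 ± 0.47, adjusted p = 0.00542). Notch2 was higher as well, at 112, 82.6 and 133 CPM against 297, 397 and 187 CPM (1.43 ± 0.34, adjusted p = 0.0293), ranked across the CD8 libraries as the B-cell and myeloid marker sums were, and the part of those cells was not tested. Its call was lost without thymocyte library 1 (adjusted p = 0.118) or 2 (0.0824) and without CD8 library 1 (0.0912) or 2 (0.115).

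**Figure D3:**
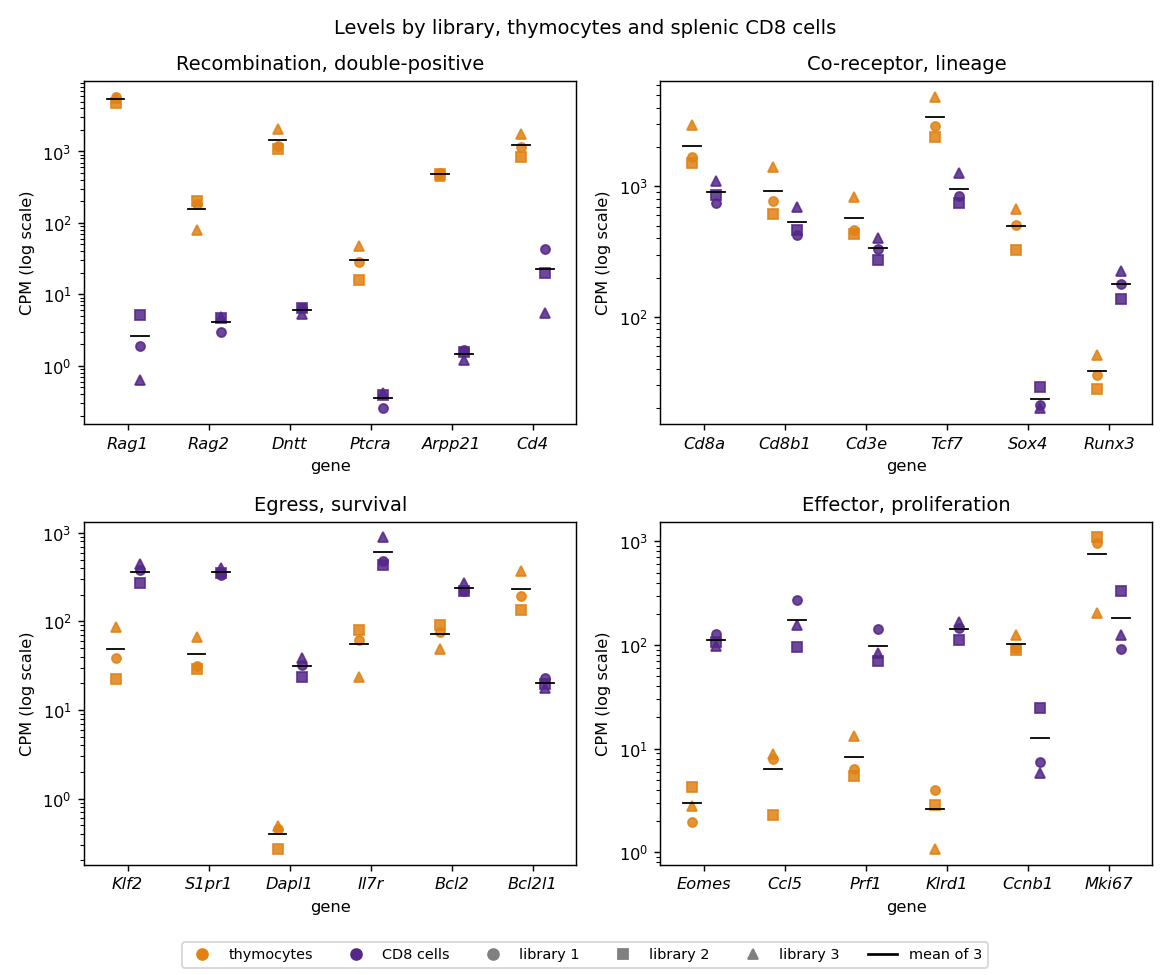
Level in CPM (log scale) of 24 genes in the 3 thymocyte (orange) and 3 CD8 (purple) libraries, with the symbol giving the library number and a black line the mean of 3. Rag1, Rag2, Dntt, Ptcra, Arpp21 and Cd4 lay lower in every CD8 library than in any thymocyte library, and Klf2, S1pr1, Dapl1, Il7r and Bcl2 lay higher.

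Among 20 transcription factors of the T lineage, 8 fell and 4 rose, with a median log2 difference of -0.67. Sox4, an HMG-box factor, was at 504, 326 and 671 CPM in thymocytes and 21.1, 28.8 and 19.8 CPM in CD8 cells (-4.43 ± 0.37, adjusted p = 0.000683). Myb was at 797, 713 and 550 CPM against 96.8, 123 and 106 CPM (-2.66 ± 0.27, adjusted p = 0.00124). Bcl11b, which maintains T-cell identity, was lower by less, at 1062, 821 and 1035 CPM against 310, 279 and 349 CPM (-1.64 ± 0.26, adjusted p = 0.00566). Tcf7, which encodes TCF1, was at 2922, 2413 and 4891 CPM against 846, 747 and 1264 CPM (-1.84 ± 0.38, adjusted p = 0.0166), a call lost without thymocyte library 1 (0.0535), CD8 library 1 (0.0897) or CD8 library 2 (0.0832). Both genes of T-cell identity were thus lower in the CD8 cells but still transcribed there. Runx3, which silences Cd4 in the CD8 lineage, was at 35.5, 27.9 and 51.0 CPM in thymocytes and 177, 137 and 225 CPM in CD8 cells (2.24 ± 0.33, adjusted p = 0.00434). Foxo1 and Bach2, factors of naive and resting lymphocytes, had log2 differences of 1.47 (adjusted p = 0.0127) and 1.27 (adjusted p = 0.0121). The other gene that rose was Id2, at 23.9, 16.7 and 20.8 CPM against 104, 49.6 and 46.2 CPM (1.70 ± 0.37, adjusted p = 0.0209), and its call was lost without any of the thymocyte libraries (adjusted p = 0.0735, 0.0669 and 0.0556 without 1, 2 and 3) or without CD8 library 1 (0.0679). Zbtb7b, the factor of the CD4 lineage, was at 38.2, 34.4 and 80.4 CPM in thymocytes and 43.8, 41.96 and 11.6 CPM in CD8 cells (adjusted p = 0.485). The 8 falls became 4 without thymocyte library 1, CD8 library 1 or CD8 library 2 and 5 without CD8 library 3. The 4 rises became 1 without thymocyte library 1 and 2 without CD8 library 1.

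Genes induced by receptor engagement during positive selection were lower or not called, with 4 of 18 falling and none rising (median -0.81). Itm2a was at 160, 156 and 231 CPM in thymocytes and 24.4, 33.2 and 33.3 CPM in CD8 cells (-2.59 ± 0.28, adjusted p = 0.00151). Pdcd1, which encodes PD-1, was at 18.5, 19.5 and 41.8 CPM against 4.85, 5.23 and 3.26 CPM (-2.58 ± 0.43, adjusted p = 0.00698). The other genes that fell were the immediate-early factors Egr1 (-1.86, adjusted p = 0.00856) and Egr2 (-1.62, adjusted p = 0.0203). Without thymocyte library 3, 7 fell and 2 rose. Of 24 genes of the signalling machinery itself, 3 fell and 1 rose (median -0.56). These counts are near the shares of all genes tested, 7.46% lower and 7.26% higher, and are no result about the list. Lck, the kinase bound to the co-receptors, had -1.55 ± 0.37 (adjusted p = 0.0287), the adaptor gene Sla had -1.46 ± 0.29 (0.0152), Rasgrp1 had -0.89 (0.0447), and the phosphatase gene Ptpn22 had 1.26 ± 0.25 (0.0151). None of the 3 falls was called when thymocyte library 1 or any CD8 library was left out, and the rise was lost without thymocyte library 1, CD8 library 1 or CD8 library 3. The rises numbered 3 without thymocyte library 3.

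Receptors and factors for leaving the thymus and entering lymphoid organs changed in both directions, with 13 of 23 genes higher and 4 lower (median 1.94). Klf2, the transcription factor that switches on exit receptors, was at 38.2, 22.6 and 85.7 CPM in thymocytes and 383, 270 and 440 CPM in CD8 cells (2.90 ± 0.51, adjusted p = 0.00861, or 0.0539 without thymocyte library 1). Its target S1pr1, the sphingosine-1-phosphate receptor by which mature thymocytes follow the gradient into blood (chr3:115710433-115715072), was at 31.5, 28.7 and 67.1 CPM against 335, 350 and 400 CPM. That is 8.53-fold higher (3.09 ± 0.39, adjusted p = 0.00238). For both genes no CD8 library overlapped a thymocyte library, and CD8 library 3 was the highest of its group for each. Lack of overlap was common with so few libraries: of 18517 genes tested, 3434 were higher and 3675 lower without overlap. Ccr7, the lymph node homing receptor, was at 61.6, 48.3 and 147 CPM against 252, 210 and 334 CPM (1.63 ± 0.45, adjusted p = 0.0453). The Ccr7 call was lost when any library but thymocyte 3 was left out, with adjusted p from 0.089 to 0.179.

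Other receptors that rose are those of effector and memory cells. S1pr5 was at 0.373, 0.201 and 0.485 CPM in thymocytes and 41.8, 22.4 and 10.7 CPM in CD8 cells (6.16 ± 0.67, adjusted p = 0.00151). Ccr2, also a receptor of monocytes, was at 7.23, 11.7 and 2.62 CPM against 127, 230 and 55.7 CPM (4.25 ± 0.69, adjusted p = 0.0066). Their values followed the NK and myeloid marker sums across the CD8 libraries, S1pr5 highest in library 1 and Ccr2 in library 2, and the part of those cells was not tested. Both were named by a rule that required groups without overlap, so their lack of overlap is no finding.

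The list also held 4 genes that fell. Plxnd1, a semaphorin receptor that guides thymocytes from cortex to medulla, was at 639, 470 and 1146 CPM in thymocytes and 25.7, 35.2 and 8.77 CPM in CD8 cells (-5.02 ± 0.63, adjusted p = 0.00233). Ccr4 was at 52.6, 49.0 and 98.0 CPM against 4.60, 3.03 and 2.43 CPM (-4.32 ± 0.43, adjusted p = 0.00107). Ccr9, the receptor for the thymic chemokine CCL25, was at 833, 708 and 677 CPM against 88.7, 80.4 and 140 CPM (-2.84 ± 0.31, adjusted p = 0.00151). Cxcr4, the receptor for CXCL12, differed least of the 4 (-1.21, adjusted p = 0.0439), and its call was lost without thymocyte library 1 or any CD8 library.

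Genes of naive cells and recent thymic emigrants rose in 16 of 26 cases and fell in none (median 1.87), and in 20 of 26 without thymocyte library 3. Il7r, the receptor chain for the survival cytokine interleukin-7, was at 61.3, 80.8 and 23.3 CPM in thymocytes and 481, 435 and 891 CPM in CD8 cells, 10.9-fold higher (3.45 ± 0.53, adjusted p = 0.00521). Dapl1 was at 0.447, 0.268 and 0.485 CPM against 32.6, 23.4 and 39.1 CPM (6.31 ± 0.43, adjusted p = 0.000287). Cd55, which protects cells from complement, was at 3.80, 2.14 and 1.17 CPM against 114, 83.8 and 107 CPM (5.41 ± 0.46, adjusted p = 0.000683). Il7r and Dapl1 were highest in CD8 library 3, the library with the lowest markers of other cells. GIMAP genes, which encode GTPases that support lymphocyte survival, included Gimap3 (3.04, adjusted p = 0.00129), Gimap4 (2.58, adjusted p = 0.00089), Gimap5 (1.96, adjusted p = 0.00302) and Gimap7 (2.18, adjusted p = 0.00464) among the genes that rose, whereas Gimap9 had -0.33 (adjusted p = 0.424). H2-Q6 and H2-Q7, whose product Qa-2 appears on T cells late in maturation, had 4.30 (adjusted p = 0.0012) and 3.85 (adjusted p = 0.000887). Reads from such near-identical genes may be split between them.

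**Figure D4:**
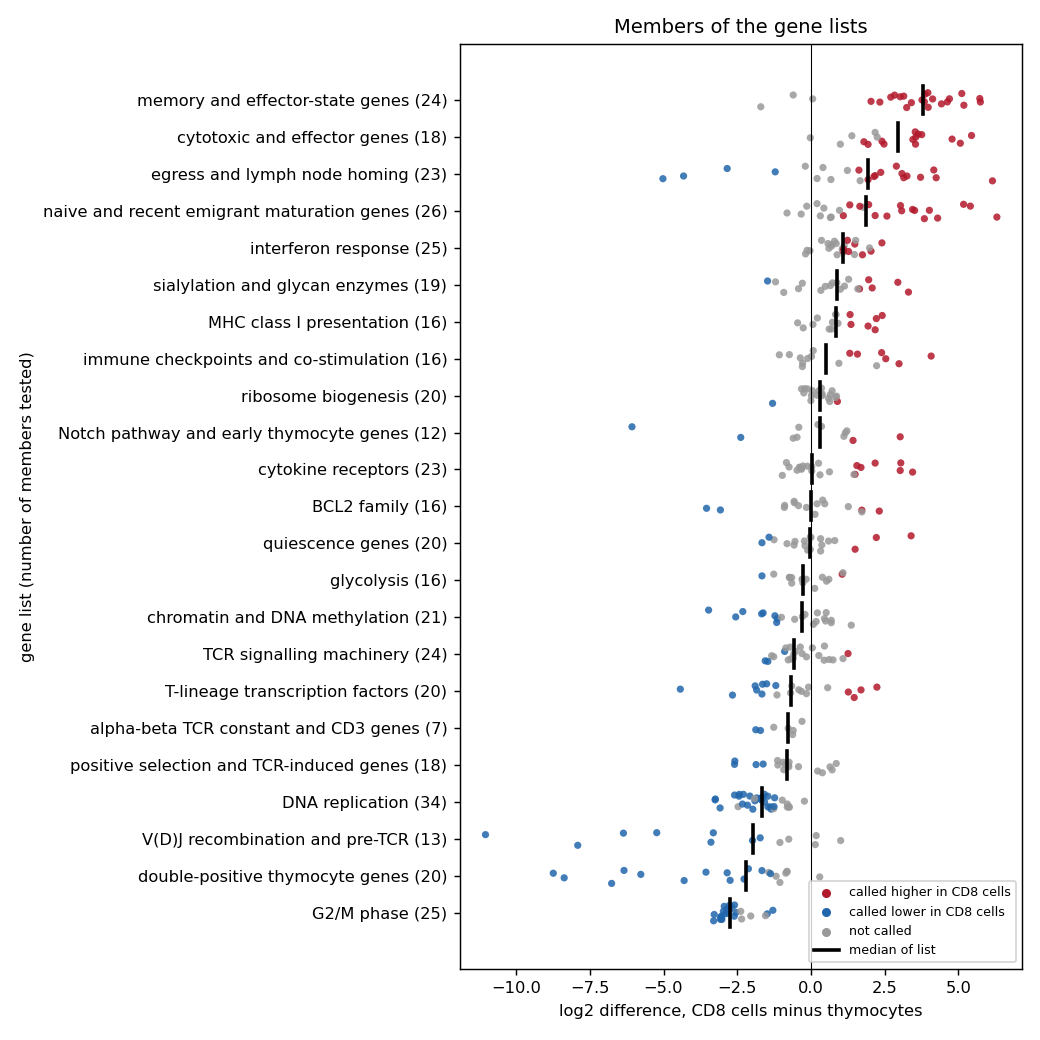
Log2 difference, CD8 cells minus thymocytes, of every tested member of 23 gene lists, ordered by the median of the list (black bar). Red and blue points were called higher and lower and grey points were not called. G2/M genes had the lowest median, -2.76, and memory and effector-state genes the highest, 3.81.

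Proliferation genes were lower in CD8 cells. Of 25 genes of the G2 and M phases, 20 fell and none rose, with a median log2 difference of -2.76, and of 34 DNA replication genes 25 fell and none rose, with a median of -1.66. Ube2c, the ubiquitin-conjugating enzyme of the anaphase-promoting complex, was at 69.0, 60.8 and 111 CPM in thymocytes and 4.22, 14.6 and 5.53 CPM in CD8 cells (-3.30 ± 0.53, adjusted p = 0.00619). Bub1b, a spindle checkpoint gene, was at 151, 184 and 239 CPM against 10.9, 35.0 and 12.9 CPM (-3.28 ± 0.50, adjusted p = 0.00492). Ccnb1, which encodes cyclin B1, was at 93.8, 90.1 and 125 CPM against 7.44, 24.8 and 5.81 CPM (-3.02 ± 0.57, adjusted p = 0.0117, or 0.0503 without CD8 library 1). In these genes CD8 library 2, the one with the most myeloid and erythroid marker transcript of its group, was the highest of the CD8 libraries, and the part of those cells was not tested. Mki67, the usual proliferation marker, was at 954, 1093 and 203 CPM against 90.8, 333 and 124 CPM. The groups overlapped, thymocyte library 3 lying below CD8 library 2, and Mki67 was not called (adjusted p = 0.0955, or 0.051 without thymocyte library 3).

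In the replication list, E2f2, a transcription factor of the G1 to S transition, was at 396, 318 and 675 CPM in thymocytes and 30.7, 80.4 and 35.5 CPM in CD8 cells (-3.24 ± 0.49, adjusted p = 0.00473). Gins2, a subunit of the replicative helicase, was at 82.3, 77.2 and 162 CPM against 9.96, 17.6 and 6.32 CPM (-3.25 ± 0.48, adjusted p = 0.00464). Mcm2, another helicase subunit, differed less, at 194, 174 and 390 CPM against 62.8, 106 and 68.4 CPM (-1.68 ± 0.39, adjusted p = 0.0258). The Mcm2 call was lost without thymocyte library 1 (adjusted p = 0.0579) or any CD8 library (0.117, 0.0507 and 0.0806 without 1, 2 and 3). The 25 falls became 5 without CD8 library 1, 11 without thymocyte library 1 and 10 without CD8 library 3, while the 20 falls among G2 and M genes ranged from 14 to 23 over the libraries left out.

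Promoters of these lists are known for short shared motifs: the CHR element and CCAAT boxes in genes of G2 and M, and E2F sites in genes of S phase. RefSeq promoters (GRCm38.p6, 250 bases before to 50 bases after the start) were searched on both strands for TTTGAA or TTTAAA (CHR), CCAAT, and TTCCCGC or TTGGCGC (E2F-type). Of 19 G2 and M promoters in the table, 17 held the CHR letters (89.5%), 17 held CCAAT (89.5%) and 16 held both (84.2%), where 27.6%, 37.4% and 10.7% of all 32851 promoters did. The E2F-type letters were in 3 of the 19 (15.8%) and in 18 of 33 promoters of 28 replication genes (54.5%), against 6.81% of all promoters. The replication promoters held CHR letters in 27.3%, CCAAT in 57.6% and both in 18.2%, so CCAAT was above its share of all promoters in both lists. A match describes letters and is no evidence of binding. The lines show 150 bases, ending 20 bases after the start and read along the gene's strand, of the called genes with the largest falls that hold the letters in this stretch, so that the layout can be seen. In the first 3, Ube2c (chr2:164769799-164769948, plus strand), Cdc20 (chr4:118437324-118437473, minus strand) and Ccnb2 (chr9:70421535-70421684, minus strand), capitals mark CHR and CCAAT letters on either strand. In Chaf1a (chr17:56040286-56040435, plus strand) and Rrm1 (chr7:102441565-102441714, plus strand) they mark E2F-type letters only, and CCAAT letters there are not marked.
Ube2c: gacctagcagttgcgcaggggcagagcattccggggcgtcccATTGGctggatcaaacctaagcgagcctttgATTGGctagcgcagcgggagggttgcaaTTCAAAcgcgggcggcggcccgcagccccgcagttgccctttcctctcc
Cdc20: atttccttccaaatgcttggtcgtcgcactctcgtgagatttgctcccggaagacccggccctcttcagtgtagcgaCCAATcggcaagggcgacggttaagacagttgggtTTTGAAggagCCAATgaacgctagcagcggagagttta
Ccnb2: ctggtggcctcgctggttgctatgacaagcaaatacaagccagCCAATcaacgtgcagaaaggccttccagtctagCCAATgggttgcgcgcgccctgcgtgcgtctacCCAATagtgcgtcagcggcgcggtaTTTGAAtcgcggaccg
Chaf1a: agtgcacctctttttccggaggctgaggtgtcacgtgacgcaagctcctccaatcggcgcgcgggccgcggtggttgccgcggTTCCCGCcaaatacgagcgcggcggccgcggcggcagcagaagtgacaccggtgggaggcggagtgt
Rrm1: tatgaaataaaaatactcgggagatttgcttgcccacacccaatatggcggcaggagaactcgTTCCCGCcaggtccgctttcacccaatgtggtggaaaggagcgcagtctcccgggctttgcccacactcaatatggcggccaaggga
In the 3 G2 and M promoters shown the marked letters began at most 88 bases from the start. Promoters were shown only if they held the letters in the 150 bases printed, so this closeness follows partly from the choice. Positions in the other G2 and M promoters were not measured. The activator of the anaphase-promoting complex Cdc20 had a log2 difference of -3.07 (adjusted p = 0.00587) and Ccnb2, cyclin B2, had -3.06 (adjusted p = 0.00775). Chaf1a, a histone chaperone of replication, had -2.32 (adjusted p = 0.00919), and Rrm1, a subunit of ribonucleotide reductase, had -2.07 (adjusted p = 0.0145).

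Chromatin and DNA methylation genes fell in 8 of 21 cases and rose in none (median -0.29). Uhrf1, which brings the maintenance methyltransferase to replicating DNA, was at 328, 327 and 642 CPM in thymocytes and 22.2, 67.7 and 26.9 CPM in CD8 cells (-3.47 ± 0.53, adjusted p = 0.00514). Lmnb1, lamin B1 of the nuclear envelope, was at 330, 300 and 534 CPM against 51.7, 93.6 and 53.4 CPM (-2.55 ± 0.37, adjusted p = 0.00417). Both followed the pattern of the replication genes, with CD8 library 2 the highest of its group. The 8 falls became 3 without CD8 library 1 or 2, 4 without thymocyte library 1 and 5 without CD8 library 3, and 5 rises appeared without thymocyte library 3.

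Quiescence, growth and metabolic genes had calls in both directions, where 7.26% of all genes tested were called higher and 7.46% lower. The counts are small and are not read as a result about these lists. Among 20 genes linked to quiescence 3 rose and 2 fell (median -0.02), among 20 of ribosome biogenesis 1 rose and 1 fell (median 0.32), and among 16 of glycolysis 1 rose and 1 fell (median -0.28). Myc, a driver of cell growth, was at 67.4, 49.5 and 104 CPM in thymocytes and 71.1, 95.8 and 90.7 CPM in CD8 cells, values that overlapped (0.22 ± 0.32, adjusted p = 0.702). Of the quiescence genes, Slfn1 had 2.22 ± 0.33 (adjusted p = 0.00464), and Klf6, a zinc-finger factor, was at 62.6, 56.4 and 55.1 CPM against 161, 172 and 159 CPM (adjusted p = 0.0044). The anti-proliferative gene Btg2 ran the other way, at 585, 399 and 774 CPM against 217, 156 and 185 CPM (-1.66 ± 0.32, adjusted p = 0.0126), as did Ccng2 (-1.42, adjusted p = 0.00576). Klf4 was called higher but was at 15.8, 30.4 and 3.82 CPM in the CD8 libraries, ranked as the myeloid marker sums were, and its call was lost without any of the 3 thymocyte libraries, CD8 library 1 or CD8 library 2 (adjusted p from 0.0624 to 0.0988). Btg2 lost its call without thymocyte library 1 (adjusted p = 0.0539), CD8 library 1 (0.0514) or CD8 library 2 (0.0689), and Ccng2 without CD8 library 1 (0.0522). Without thymocyte library 3, 8 ribosome biogenesis genes and 5 glycolysis genes were called higher, and 4 quiescence genes rose and 4 fell, so these counts depend on that library. The single calls were Utp20 (0.90, adjusted p = 0.0305) and Wdr12 (-1.30, adjusted p = 0.015) in ribosome biogenesis, and Slc2a3 (1.06, adjusted p = 0.0472) and Pfkm (-1.66, adjusted p = 0.0242) in glycolysis. Each of these 4 calls was lost without at least 3 of the 6 libraries.

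Cytotoxic genes were higher in splenic CD8 cells, where 13 of 18 rose and none fell (median 2.97). Ccl5, a chemokine of memory CD8 cells, was at 7.90, 2.28 and 8.93 CPM in thymocytes and 273, 95.7 and 156 CPM in CD8 cells, 27.6-fold higher (4.79 ± 0.63, adjusted p = 0.00282). Prf1, perforin, was at 6.34, 5.49 and 13.3 CPM against 142, 70.3 and 83.1 CPM (3.56 ± 0.46, adjusted p = 0.00262). Gzmm, a granzyme, was at 0.745, 0.736 and 0.777 CPM against 10.96, 6.66 and 10.8 CPM (3.64 ± 0.42, adjusted p = 0.00164). Other granzymes differed between CD8 libraries: Gzma, the granzyme most typical of NK cells, was at 165, 62.0 and 30.3 CPM, overlapping thymocytes at 26.6, 24.96 and 46.4 CPM (adjusted p = 0.166). Gzmk was at 0, 0.201 and 0.0971 CPM against 4.41, 6.62 and 3.13 CPM (5.45 ± 0.77, adjusted p = 0.00384), with 4 counts in all thymocyte libraries together. Ccl3 was called higher (5.07 ± 1.20, adjusted p = 0.0274), but was at 8.82, 1.39 and 1.45 CPM in the CD8 libraries, highest where NK markers were highest, and lost the call without any thymocyte library or CD8 library 1 (adjusted p from 0.0636 to 0.117). In CD8 library 3, where the NK marker Ncr1 was at 8.65 CPM against 105 CPM in library 1, Prf1 and Ccl5 were at 83.1 and 156 CPM, and the part of NK cells in these levels was not tested.

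Memory and effector-state genes had the largest median rise of the lists, with 21 of 24 higher and none lower (median 3.81). Eomes, the T-box factor of memory CD8 and NK cells, was at 1.94, 4.28 and 2.82 CPM in thymocytes and 128, 108 and 97.0 CPM in CD8 cells, 36.6-fold higher (5.19 ± 0.38, adjusted p = 0.000378). Klrd1, which encodes CD94, was at 3.95, 2.88 and 1.07 CPM against 145, 113 and 168 CPM (5.73 ± 0.50, adjusted p = 0.000692). Il2rb, the receptor chain through which interleukin-15 maintains memory cells, was at 58.6, 47.5 and 103 CPM against 700, 427 and 574 CPM (3.03 ± 0.38, adjusted p = 0.00248). Across the CD8 libraries these 3 genes varied by at most 1.64-fold. NK cells also express them, and the part of NK cells in their levels was not tested. Tbx21, which encodes T-bet, was at 3.95, 2.14 and 3.69 CPM against 73.0, 32.5 and 37.6 CPM (3.87 ± 0.45, adjusted p = 0.00169). Klrg1, a marker of short-lived effectors, was low in CD8 cells too, at 8.32, 6.09 and 3.57 CPM against 0, 0.134 and 0.194 CPM (5.75 ± 0.79, adjusted p = 0.00321, on 4 thymocyte counts). Without thymocyte library 3, 16 of 24 were called higher, and without CD8 library 1 the count was 14.

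Of 16 BCL2 family genes tested, 2 were higher and 2 lower, where 7.26% of all genes tested were higher and 7.46% lower. Counts so near those shares are no result about the family, and single members are given. Bcl2l1, which encodes Bcl-xL, the survival factor of CD4+ CD8+ thymocytes, was at 193, 136 and 372 CPM in thymocytes and 23.1, 19.7 and 17.7 CPM in CD8 cells, 11.6-fold lower (-3.54 ± 0.42, adjusted p = 0.00191). Bcl2, the survival factor of mature T cells, was at 75.8, 90.1 and 49.4 CPM against 222, 218 and 275 CPM, 3.32-fold higher (1.73 ± 0.29, adjusted p = 0.00774). The BH3-only gene Bmf was lower (-3.07 ± 0.54, adjusted p = 0.00901). Pmaip1, which encodes Noxa, was higher (2.32 ± 0.46, adjusted p = 0.015), a call lost without thymocyte library 1 (0.064), CD8 library 1 (0.0567) or CD8 library 2 (0.0604). The other members tested were not called, among them Mcl1 (0.21, adjusted p = 0.651) and Bcl2l11, which encodes Bim (-0.42, adjusted p = 0.293). Without thymocyte library 3, 4 members rose.

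Among 23 cytokine receptor genes 7 rose and none fell (median 0.03), so the calls sat beside many flat members. Il6ra was at 28.0, 25.7 and 41.9 CPM in thymocytes and 228, 286 and 279 CPM in CD8 cells (3.05 ± 0.29, adjusted p = 0.000982), whereas Il2rg, the common gamma chain, was at 300, 282 and 485 CPM against 433, 398 and 494 CPM (adjusted p = 0.54). Il7r and Il2rb, described with the naive and memory genes, were the other large rises. The 7 became 4 without thymocyte library 1, thymocyte library 2 or CD8 library 1. Of 16 checkpoint and co-stimulation genes 6 rose and none fell (median 0.51), and 3 rose without thymocyte library 1, CD8 library 1 or CD8 library 2. Cd226, an activating receptor, was at 13.5, 18.1 and 4.27 CPM against 89.5, 77.1 and 119 CPM (2.99 ± 0.51, adjusted p = 0.00767). Cd244a, which NK cells also express, was at 3.06, 1.20 and 2.14 CPM against 57.9, 42.2 and 8.58 CPM (4.08 ± 0.74, adjusted p = 0.00969, or 0.0595 without thymocyte library 3). Lag3, Ctla4, Tigit and Tnfrsf9, checkpoint genes of activated or exhausted cells, overlapped between the groups and were not called (adjusted p from 0.248 to 0.918).

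Antigen presentation by MHC class I was higher in 6 of 16 genes and lower in none (median 0.85), and in 12 of 16 without thymocyte library 3. H2-K1, a classical class I heavy chain, was at 308, 257 and 650 CPM in thymocytes and 2491, 1788 and 2223 CPM in CD8 cells, 5.36-fold higher (2.42 ± 0.41, adjusted p = 0.00784, or 0.0536 without thymocyte library 1). B2m, its light chain, was at 236, 226 and 293 CPM against 1219, 1128 and 1165 CPM, 4.65-fold higher (2.22 ± 0.26, adjusted p = 0.00168, or 0.0922 with a correction for GC content). Nlrc5, the transcriptional activator of class I genes, had 2.18 (adjusted p = 0.00241). Peptide supply genes such as Tap1 (0.73, adjusted p = 0.218) and Psmb8 (-0.26, adjusted p = 0.724) were not called. The count of 6 became 2 without thymocyte library 1 and 3 without CD8 library 1.

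Interferon-stimulated genes rose in 8 of 25 cases and fell in none (median 1.09). Mx1 was at 4.32, 7.29 and 7.18 CPM in thymocytes and 27.2, 51.8 and 21.2 CPM in CD8 cells (2.41 ± 0.43, adjusted p = 0.00899, or 0.0513 without thymocyte library 1), and Ifit3 was at 7.38, 9.23 and 14.5 CPM against 28.2, 61.5 and 38.2 CPM (2.04 ± 0.40, adjusted p = 0.0137). Isg15, in contrast, was at 7.90, 8.90 and 19.6 CPM against 7.69, 19.5 and 8.44 CPM (adjusted p = 0.979). The count moved widely, to 15 without thymocyte library 3, 0 and 1 without thymocyte libraries 1 and 2, and 3, 1 and 3 without CD8 libraries 1, 2 and 3. Ifit3 lost its call without thymocyte library 1 (adjusted p = 0.0729), thymocyte library 2 (0.0505) or CD8 library 2 (0.0505). Enzymes of sialylation and glycan synthesis rose in 5 of 19 cases and fell in 1. The fall was Mgat5, which branches N-glycans, at 218, 157 and 274 CPM against 83.2, 83.2 and 67.2 CPM (-1.47 ± 0.28, adjusted p = 0.0126, lost with adjusted p of 0.054 to 0.0633 without thymocyte library 1 or any CD8 library). St3gal6 had 1.96 (adjusted p = 0.00249). Gcnt1 and Gcnt2, the largest rises, were at only 3.92 and 5.04 CPM in CD8 library 3, and their calls were lost without any thymocyte library, CD8 library 1 or CD8 library 2 (adjusted p from 0.0696 to 0.122). The 5 rises became 1 without thymocyte library 1, thymocyte library 2, CD8 library 1 or CD8 library 2 and 9 without thymocyte library 3.

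The largest differences over all genes with at least 20 CPM in the higher group included Rag1, Dntt, Arpp21, Endou and Dapl1, described with their groups. Of the other falls, Chrna9, a nicotinic receptor subunit, was at 96.0, 97.8 and 92.6 CPM in thymocytes and 0.441, 0.249 and 0.187 CPM in CD8 cells (-8.44 ± 0.40, adjusted p = 0.000153), the most even thymocyte values of the genes that fell furthest. Scn4b, a sodium channel subunit, was at 52.3, 47.0 and 101 CPM against 0.378, 0.356 and 0.233 CPM (-7.71 ± 0.49, adjusted p = 0.000258). H2-Q2, a class I-like gene, fell (-7.54 ± 0.54, adjusted p = 0.000343) while H2-Q6 and H2-Q7 rose. Camkv, a kinase-like gene, had 744 counts in thymocytes and 3 in CD8 cells, a ratio of 557 (95% counting interval 190 to 2710).

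Of the largest rises, Pde2a, a phosphodiesterase that breaks down cyclic nucleotides, was at 1.34, 2.28 and 2.43 CPM in thymocytes and 118, 114 and 212 CPM in CD8 cells, 73.6-fold higher (6.20 ± 0.43, adjusted p = 0.000325), with its highest value in CD8 library 3. Car1, carbonic anhydrase 1, had 1 count in thymocytes and 3066 in CD8 cells, a ratio of 1360 (95% counting interval 245 to 53900), and stood at 18.7, 76.3 and 14.6 CPM in the CD8 libraries. Car1 is also an erythroid gene, and CD8 library 2 had the highest haemoglobin transcripts of its group. The part of erythroid cells was not tested. Klra4, Klra8 and Ncr1, receptors of NK cells, were highest in CD8 library 1 (52.2, 62.5 and 105 CPM) and at 5.67, 4.73 and 8.65 CPM in library 3, and each lost its call without thymocyte library 3 (adjusted p = 0.0617, 0.0907 and 0.0509). Klra8 also lost it without thymocyte libraries 1 (0.0739) and 2 (0.0594). Klra13-ps, annotated as a pseudogene of the same family, kept 91.3, 35.0 and 63.3 CPM across the CD8 libraries (6.62 ± 0.72, adjusted p = 0.00151). Klra genes are near copies of each other, so their reads may be divided uncertainly. Treml4, a receptor of myeloid cells, was at 30.8, 40.5 and 4.38 CPM (6.19 ± 0.94, adjusted p = 0.00513), lowest in the CD8 library with the fewest myeloid markers.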

How the data were processed

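Gene-level estimated counts and variance-stabilized log2 values were deposited by the authors for 12 samples. The submitters' processing notes name kallisto 0.46.1, FastQC, DESeq2 and the build GRCm38, and the library kit keeps strand, per the labels, though whether counting used it is not given in the sources used here. The deposited estimated counts were whole numbers and were used as given. Of 54351 genes, 19401 had no count in the 6 libraries, and 18517 passed edgeR's filterByExpr. The 6 libraries were fitted by group with TMM scaling and the robust quasi-likelihood test (edgeR 4.0.16, R 4.3.3), giving 4 residual degrees of freedom and a biological coefficient of variation of 0.401. CPM were computed from TMM-scaled library sizes. The deposited log2 values served only an alternative with limma 3.58.1, and DESeq2 1.42.0 was another. The fit was tested on simulated data.

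The comparison, its gene lists and its tests were chosen with earlier results of these data known. Named genes are fixed marker genes, up to 2 members per direction of each list with the largest change, the 8 largest rises and falls with at least 20 CPM, and the 2 most abundant markers of each other cell type. Genes named for a large change had to be called and to have groups that did not overlap. For those genes the call and the lack of overlap follow from the choice. Other genes named, such as Foxo1, Egr1, Xrcc6 or the GIMAP genes, were chosen after their values were seen. The fit has no replicate block, because same-numbered libraries of the 2 groups did not deviate together (correlations 0.034, 0 and -0.131). These 3 values cannot exclude that such libraries share animals. Precision depends on depth: 3 counts equal 0.07 to 0.291 CPM. Intervals cover counting error only. Figures were drawn with matplotlib. Some genes of the lists are counted but not reported here by name.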

Additional observations from a re-analysis of the deposited data

How the results depend on the processing

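Over 16 alternatives the number of genes higher in CD8 cells (1344 in the report) was 856 with a replicate block, against 939 lower, and the number lower (1382 in the report) was 2129 with a correction for GC content, against 1955 higher. The GC correction, chosen after seeing the data, moved the median log2 difference of all genes to -0.102. Leaving out 1 library at a time gave 409 to 2262 genes higher and 652 to 2329 lower: 409 and 730 without thymocyte library 1, 691 and 1293 without thymocyte library 2, 2262 and 2329 without thymocyte library 3, 566 and 652 without CD8 library 1, 624 and 786 without CD8 library 2, and 1451 and 883 without CD8 library 3. These fits have fewer samples, and the cause of their differences was not tested further. Higher genes made up 49.3% of the calls in the report, 34.8% without thymocyte library 2 and 62.2% without CD8 library 3. DESeq2 called 1978 higher and 1923 lower (adjusted p not available for 25 genes), and the fit of all 12 libraries called 1513 and 1773. Of the 116 named genes 91 were called, and 56 of those passed with the same sign under every alternative. No named gene changed direction past the threshold. The labels do not say whether same-numbered libraries share an animal, so whether the block belongs in the fit is not known. The block also leaves fewer residual degrees of freedom, and the calls lost under it were not traced further. The thymocyte libraries, at 12694571 to 13592535 counts, limit low genes most.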

Other observations

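Several gene groups outside the comparisons of the report are described here. Of 13 mitochondrially encoded genes 4 were called higher in CD8 cells and none lower, against 7.26% of all genes higher, and the list had a median log2 difference of 1. The summed level of the 13 genes was 16200, 9440 and 12400 CPM in the thymocyte libraries and 21500, 22300 and 25300 CPM in the CD8 libraries, which did not overlap. The 4 genes encode subunits of respiratory complex I: mt-Nd2 (1.34, adjusted p = 0.0284), mt-Nd4 (1.07, adjusted p = 0.0491), mt-Nd5 (1.28, adjusted p = 0.0404) and mt-Nd6 (1.48, adjusted p = 0.0454). None of the 13 was called without thymocyte library 1 or 2, without CD8 library 1 or 3, or with the correction for GC content, and 1 was called without CD8 library 2. The share of counts from mitochondrial genes is also read as a sign of RNA and cell quality, and its part was not tested.

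Genes of CD4 helper and regulatory T cells fell in 5 of 10 cases and rose in none, with Cd40lg, the helper ligand of B cells, at 9.91, 8.03 and 13.8 CPM in thymocytes and 4.54, 2.35 and 1.45 CPM in CD8 cells (-1.94 ± 0.50, adjusted p = 0.038). Of all genes tested 7.46% were lower and 7.26% higher. The 5 falls became 3 without thymocyte library 1, CD8 library 2 or CD8 library 3. Foxp3, the regulatory T-cell factor, was at 6.49, 5.62 and 10.97 CPM against 17.0, 6.23 and 4.94 CPM, and was highest in CD8 library 1 (adjusted p = 0.785). Of 13 genes that respond to dissociation stress 1 was higher, Ier3 (3.40, adjusted p = 0.00652), and Fos was at 4.17, 2.34 and 3.79 CPM against 26.3, 14.0 and 2.89 CPM (adjusted p = 0.101). Of 11 stroma markers tested, Ly75 was higher, at 53.9, 37.3 and 37.96 CPM against 136, 132 and 162 CPM (1.74 ± 0.26, adjusted p = 0.00464), and Pdgfrb was lower (-1.71, adjusted p = 0.0369), a call lost without thymocyte library 1 or any CD8 library. The stress and stroma counts are near the shares of all genes tested and are no result about those lists. Ly75 encodes DEC-205, an uptake receptor also found on dendritic cells. Dendritic-cell markers summed to 2190, 1190 and 517 CPM in the CD8 libraries and 329 to 835 CPM in thymocytes, and the part of those cells was not tested.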
